A study of Mus musculus with 14 samples.

Results

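Stat3 and 9 genes that work with or respond to it were followed in the whole ileum (the distal small intestine) of wild-type C57BL/6N mice. The members were chosen by name: Stat3, the cytokine receptor genes Il6st and Osmr, the feedback inhibitor Socs3, and the response genes Bcl3, Cebpd, Il18, Tifa, Pla2g5 and Sprr1a. All 10 were among the 46855 gene entries of the expression table. RNA was sequenced in 14 libraries. They came from untreated mice at postnatal day 14 (P14, n = 4), when mice suckle, untreated mice at day 24 (P24, n = 4), after weaning, mice injected intraperitoneally with 100 µL of saline (PBS, n = 3), and mice injected with 0.1 µg of recombinant mouse interleukin-22 per g body weight in the same volume (rmIl22, n = 3). Injections were given at days 14 and 15 and this tissue was taken at day 16. The labels disagree on the age of the injected mice: the age entry reads day 14 with PBS but day 24 with rmIl22, against day 16 in the protocol. Groups therefore follow the sample titles. Libraries are named by the number in their table column.

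STAT3 is a transcription factor that waits in the cytoplasm until a receptor-bound Janus kinase phosphorylates it. Interleukin-22 (IL-22) reaches it through the receptor chains IL22RA1 and IL10RB on epithelial cells, and the interleukin-6 family reaches it through gp130, the protein of Il6st. Phosphorylated STAT3 moves to the nucleus and turns on target genes. Among them is Socs3, whose protein binds the kinase and receptor and shuts the signal down. In the gut this pathway is known for antimicrobial defence and epithelial repair.

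The promoter of Socs3 is shown because it was the only window of a member with the palindromic STAT motif TTCNNNGAA (N is any base, and the motif reads the same on both strands). The windows are from RefSeq (GRCm38.p6) and run from 250 bases before a start site to 50 after it. There were 11 windows for 9 members, with none used for Cebpd. Of all 32851 windows in the table, 2726 (8.3%) held the motif. In Socs3 (chr11:117969317-117969616, minus strand) it lay from 154 to 146 bases upstream of the RefSeq start site, at chromosome 11, 117969512 to 117969520. The motif is in capitals.
Socs3: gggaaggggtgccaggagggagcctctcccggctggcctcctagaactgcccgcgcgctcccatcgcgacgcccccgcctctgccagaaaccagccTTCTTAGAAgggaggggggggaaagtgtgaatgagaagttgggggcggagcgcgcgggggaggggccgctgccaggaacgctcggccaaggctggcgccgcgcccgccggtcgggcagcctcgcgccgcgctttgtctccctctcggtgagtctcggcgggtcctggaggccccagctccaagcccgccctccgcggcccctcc
The GENCODE M21 annotation starts Socs3 681 bases further upstream of the RefSeq start. The window covers the nearest 250 of these bases, with the motif among them, and the bases beyond the window were not searched. The match is a run of letters and says nothing about binding in these mice.

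Whole tissue was measured, so fewer cells of a type and less RNA per cell cannot be told apart. Depth recovered from the deposited values was 35.6 to 46.5 M reads per library. Libraries of 1 group differed in sex-linked RNA: Xist, the X-inactivation RNA of female cells, stood at a TPM of at least 1 in 2 of 4 P14, 3 of 4 P24, 0 of 3 PBS and 2 of 3 rmIl22 libraries, and the Y-linked gene Ddx3y in the remaining ones. Epithelial markers were abundant in all groups, with the sum of Epcam, Cdh1, Vil1 and 4 keratins from 5151 to 12937 TPM. Saa1, an acute-phase gene, stood at 1634 to 1882 TPM in the rmIl22 libraries and at 7.28 to 27.8 TPM in the PBS libraries, so all 3 injected libraries differed from saline in this gene. Library 2 of the rmIl22 group stood apart from libraries 1 and 3. Of 15702 genes that reached a TPM of 1 in 3 or more libraries, 1086 were below 50% of both others there, against 350 for library 1 and 87 for library 3. In the other direction, 185, 356 and 468 genes were above 2-fold of both others in libraries 1, 2 and 3.

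TPM is a transcript abundance scaled for gene length and library depth, so levels of genes can be compared. At P14 Tifa was the most abundant member (94.3 ± 14.2 TPM, mean ± SD, n = 4), followed by Stat3 (37.6 ± 5.4), Il18 (28.4 ± 7.63) and Il6st (18.8 ± 3.54). Osmr (1.61 ± 0.290) and Pla2g5 (0.681 ± 0.237) were lowest. At P24 the order had changed: Il18 (108 ± 49.6 TPM) and Tifa (98.3 ± 27.5) led with overlapping values, and Socs3 (52.9 ± 23.1) and Cebpd (41.1 ± 16.1) stood above Stat3 (32.9 ± 4.53) in their means. Between Socs3 and Cebpd and between Cebpd and Stat3, neighbours in that order, single libraries overlapped.

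**Figure D1:**
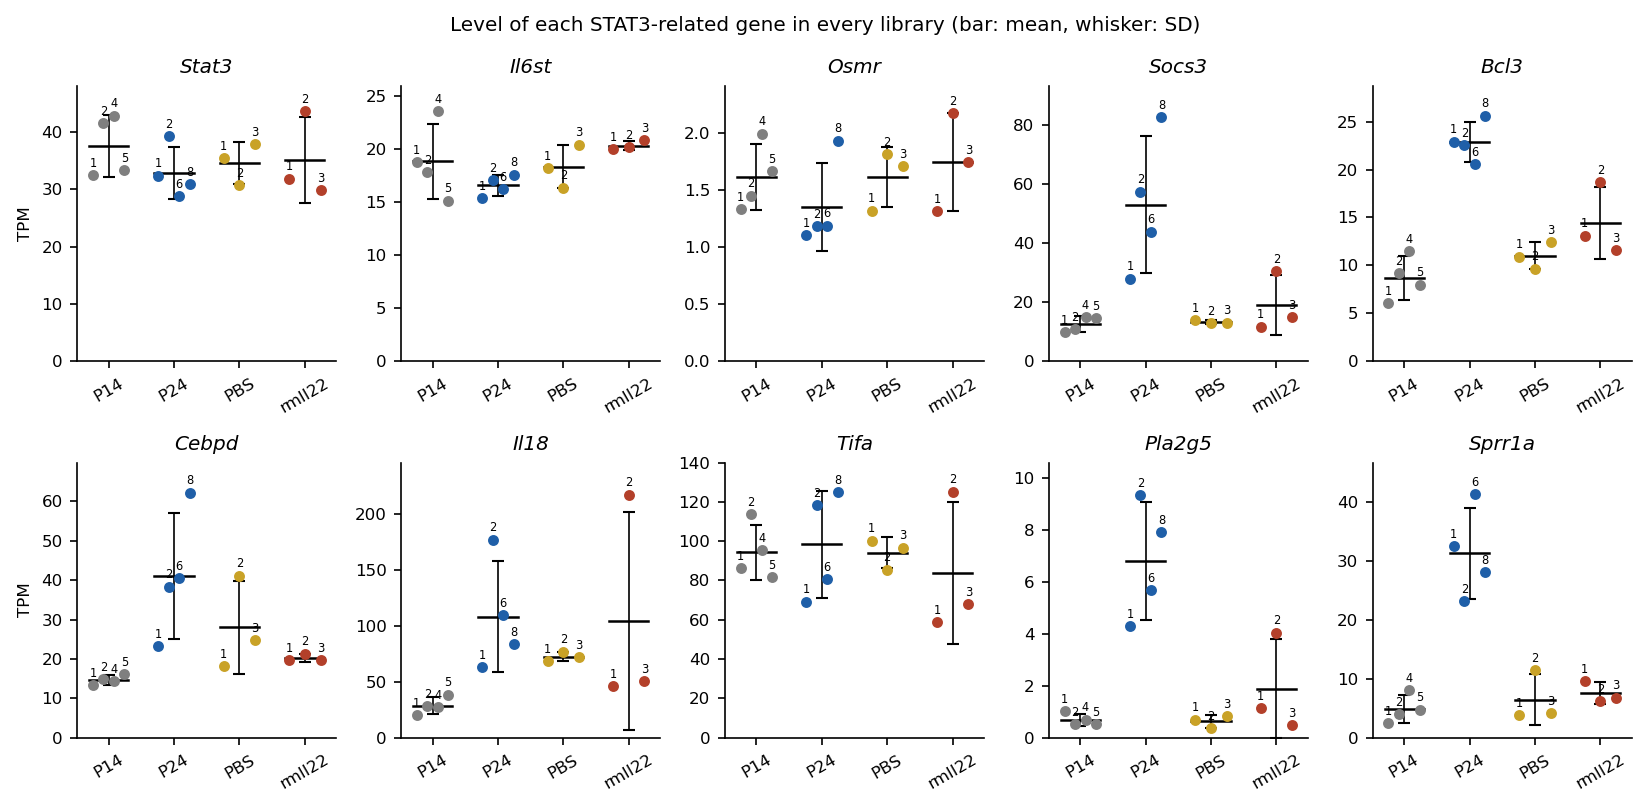
TPM of the 10 genes in each of the 14 libraries, with linear axes from 0. Points are libraries, labelled with their column number, horizontal bars are group means and whiskers are SD. Socs3, Bcl3, Cebpd, Il18, Pla2g5 and Sprr1a are higher in every P24 than in every P14 library, and rmIl22 library 2 lies above libraries 1 and 3 in Socs3, Il18, Tifa and Pla2g5.

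The first comparison asked how these genes differ between suckling and weaned mice. Of the 10 members, 6 rose by P24, 0 fell and 4 did not pass (limma on log2(TPM + 1), Benjamini-Hochberg adjusted p under 0.05 over all genes tested). The same 6 had P24 values that did not overlap the P14 values. Pla2g5 is among the 6 and met the expression limit through its P24 libraries, so its direction in this fit is set by the filter. With no filter on low values it was called higher as well (limma, adjusted p = 0.000155). Of all 14651 genes tested, 58.3% passed, 14.6% higher and 43.7% lower. Values did not overlap in 52.4%, with 13.0% higher and 39.4% lower. On TPM scaled to a common median, 29.5% were higher and 28.3% lower, and the members again counted 6 higher and 0 lower. The median member had a log2 fold change of 1.34 and the median gene one of -0.25. This median moved to 0.02 with the scaling.

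The transducer and the receptors differed little. Stat3 (ENSMUSG00000004040.16, chromosome 11, 100885098 to 100939540, minus strand) stood at 32.5, 41.5, 42.9 and 33.4 TPM in P14 libraries 1, 2, 4 and 5. It stood at 32.4, 39.3, 28.8 and 30.9 TPM in P24 libraries 1, 2, 6 and 8. The groups overlapped over most of their range, with a log2 fold change of -0.19 (SE 0.13, adjusted p = 0.220). Il6st, which encodes the gp130 chain shared by interleukin-6 family receptors (chromosome 13, 112464070 to 112510086), ranged from 15.1 to 23.6 TPM at P14 and from 15.4 to 17.6 TPM at P24 (log2 fold change -0.16, SE 0.12, adjusted p = 0.289). Osmr, the oncostatin M receptor chain that pairs with gp130 (chromosome 15, 6813577 to 6874969), had 1.33, 1.45, 1.99 and 1.67 TPM at P14 and 1.10, 1.18, 1.19 and 1.93 TPM at P24. Its P24 library 8 lay inside the P14 range and the other 3 below it (log2 fold change -0.16, SE 0.15, adjusted p = 0.375). On median-scaled TPM the signs of these 3 differences turned (0.11, 0.13 and 0.023 for Stat3, Il6st and Osmr), still without passing.

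The feedback inhibitor rose. Socs3 (ENSMUSG00000053113.3, chromosome 11, 117966079 to 117970047, minus strand) stood at 9.80, 10.8, 14.9 and 14.6 TPM in P14 libraries 1, 2, 4 and 5. In P24 libraries 1, 2, 6 and 8 it stood at 27.9, 57.4, 43.9 and 82.5 TPM. Every P24 library was above every P14 library, and P24 values spread more widely (SD 23.1 against 2.62 TPM). The mean was 4.22-fold higher at P24, with a log2 fold change of 1.91 (SE 0.27, adjusted p = 9.74e-05), larger than that of 98.2% of all genes tested.

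Bcl3 and Cebpd, the transcriptional regulators of the group, rose as well. Bcl3, a nuclear IκB-like protein that binds NF-κB dimers (chromosome 7, 19808462 to 19822770), had 6.02, 9.18, 11.5 and 7.97 TPM at P14 and 22.9, 22.5, 20.5 and 25.6 TPM at P24. Its P24 values were the most even of the 6 rising genes, with a coefficient of variation of 9.13% (log2 fold change 1.33, SE 0.16, adjusted p = 2.43e-05). Cebpd, a C/EBP transcription factor of the acute-phase response (chromosome 16, 15887286 to 15891031), had 13.3, 14.9, 14.4 and 16.1 TPM at P14. At P24 it had 23.3, 38.4, 40.6 and 62.3 TPM in libraries 1, 2, 6 and 8 (log2 fold change 1.35, SE 0.22, adjusted p = 0.000335). P24 library 1 was lowest and library 8 highest in both Cebpd and Socs3.

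Il18 encodes interleukin-18, a cytokine stored as a precursor in gut epithelium and released after caspase cleavage (chromosome 9, 50554827 to 50581840). It stood at 19.8, 28.2, 27.0 and 38.4 TPM at P14 and at 63.1, 177, 109 and 83.7 TPM at P24. The groups did not overlap and library 2 was highest at P24 (log2 fold change 1.83, SE 0.28, adjusted p = 0.000172). Tifa encodes an adaptor that carries signals from bacterial sugars through TRAF6 to NF-κB (chromosome 3, 127789805 to 127832164). Its values overlapped: 86.2, 114, 95.5 and 81.6 TPM at P14 and 69.2, 118, 80.8 and 125 TPM at P24. Tifa showed no change that passed (log2 fold change 0.028, SE 0.18, adjusted p = 0.902). P24 libraries 2 and 8 were above all P14 libraries and P24 libraries 1 and 6 below all of them.

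Pla2g5 and Sprr1a had the largest rises. Pla2g5, a secreted phospholipase A2 (chromosome 4, 138799244 to 138863482), met the expression limit through its P24 libraries and was scarce at P14 with 1.01, 0.512, 0.692 and 0.509 TPM, or 33 to 69 reads per library. It reached 4.29, 9.35, 5.68 and 7.91 TPM at P24, or 296 to 483 reads (9.995-fold in the means, log2 fold change 2.18, SE 0.20, adjusted p = 3.30e-06). The pseudocount of 1 lowers this value, and with 0.1 the log2 fold change was 3.13. Sprr1a, a small proline-rich protein known from the cornified envelope of squamous epithelium (chromosome 3, 92483952 to 92485895), had 2.47, 3.94, 8.09 and 4.76 TPM at P14. At P24 it had 32.5, 23.1, 41.3 and 28.1 TPM (6.49-fold, log2 fold change 2.53, SE 0.26, adjusted p = 7.57e-06). Summed markers of keratinised squamous epithelium were 2.61 to 5.06 TPM at P14 and 2.12 to 2.83 TPM at P24. Their part in the Sprr1a values was not tested.

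All 6 rises passed in each of the 15 alternatives tried, including a fit with the Xist level as a term and the Xist-high libraries alone (2 P14 and 3 P24). Pla2g5 entered these fits mainly through P24, except the fit with no filter. In the authors' deposited table the same 6 had adjusted p-values from 1.74e-19 to 0.000147 and log2 fold changes from 1.73 (Bcl3) to 3.63 (Pla2g5). The authors' deposited table gave Stat3 0.13, Il6st 0.14, Osmr 0.05 and Tifa 0.37, with adjusted p-values from 0.178 to 0.876. Markers of most cell types differed between the ages. Ileal enterocyte markers summed to 2254 to 3922 TPM at P14 and 23605 to 33131 TPM at P24, and adipocyte markers to 0.252 to 43.4 and 150 to 273 TPM. Of the 5 ileal enterocyte markers 4 were called higher and 1, Alpi, lower. Markers of neurons and glia (7 of 7), endothelium (5 of 5) and fibroblasts (5 of 6) were called lower at P24. Summed B and plasma cell markers were 3.59 to 25.8 TPM at P14 and 27.7 to 171 TPM at P24, and T and innate lymphoid markers 5.49 to 12.6 and 11.9 to 34.4 TPM, with 2 called markers in each list. P24 libraries 1 and 8 had the most of both, while Socs3 and Cebpd were lowest in library 1 and highest in library 8. Epithelial markers summed to 5151 to 6597 TPM at P14 and 10148 to 12937 TPM at P24, but single markers split. Of the 7 markers 4 were called higher and 1, Krt18, lower (638 to 772 TPM at P14 and 299 to 374 TPM at P24). Epcam overlapped, with 1986 to 2596 TPM at P14 and 2059 to 2746 TPM at P24. The part of these differences in cell markers was not tested.

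Some members share their locus with another gene. Pla2g5 overlaps Pla2g2a on the opposite strand by 3330 bases, and Pla2g2a rose too (6.45 ± 1.52 to 48.3 ± 6.00 TPM). Il18 overlaps Tex12 by 4507 bases on the opposite strand. Tex12 went from 0.439 ± 0.162 to 2.76 ± 0.742 TPM. Il18 also overlaps Bco2 by 355 bases on the opposite strand, and Bco2 went from 6.20 ± 1.12 to 33.0 ± 8.56 TPM. Tifa overlaps Ap1ar by 25158 bases on the opposite strand, and Ap1ar went from 48.1 ± 6.46 to 19.2 ± 2.55 TPM. In the GENCODE M21 models 0 exon bases are shared in any of these pairs. Cebpd shares 562 of 3746 exon bases with Spidr, which runs the other way and went from 12.2 ± 1.51 to 6.61 ± 0.426 TPM. Smaller shares on opposite strands were 72 of 9527 exon bases for Stat3 (with Stat5a), 161 of 2475 for Bcl3 (with Gm16175) and 105 of 3199 for Tifa (with Gm43654). Whether the counting used strand is not given in the sources used here. Without it, reads from exon bases that both partners share, as in Cebpd and Spidr, cannot be told apart.

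**Figure D2:**
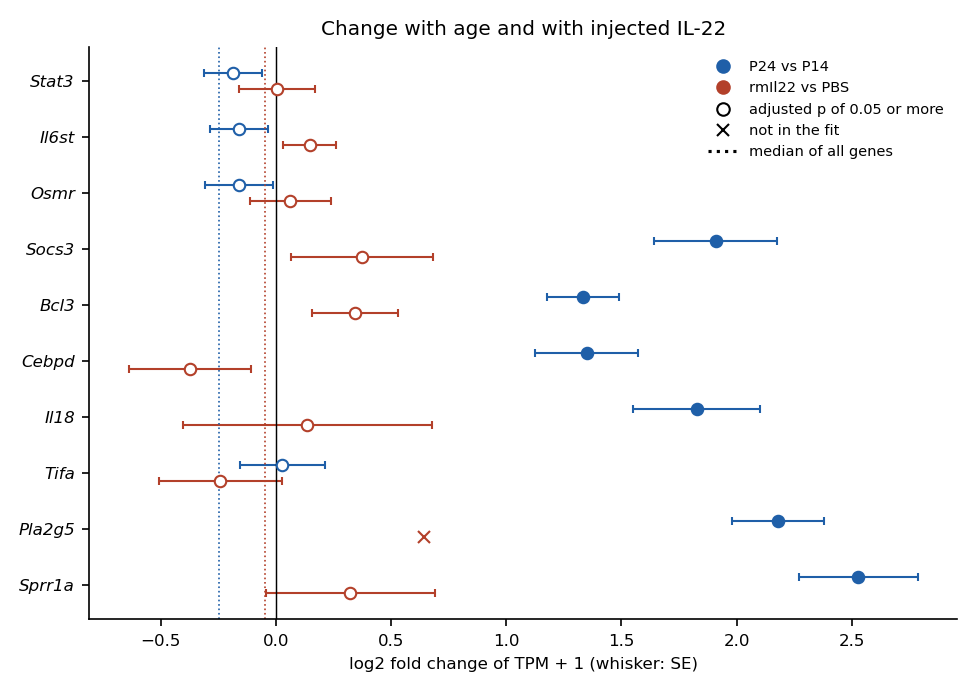
Log2 fold change of TPM + 1 for the 10 genes in P24 against P14 (blue) and rmIl22 against PBS (red), with SE as whiskers. Filled points passed an adjusted p of 0.05, the cross is Pla2g5, which was too low for the fit of the injected mice, and dotted lines are the medians of all genes (-0.25 and -0.05). The 6 filled points are all blue and lie between 1.33 and 2.53.

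The second comparison asked what IL-22 injected before weaning does to the same genes. None of the 10 members passed, with 0 of the 9 tested also under an unadjusted p of 0.05 in limma and 0 called by limma voom on recovered reads. Of all 14456 genes tested, 2.69% passed, 0.443% higher and 2.25% lower. On median-scaled TPM 0.491% were higher and 1.56% lower, with 0 members called. Values of PBS and rmIl22 libraries overlapped for all 10 members, while they did not overlap for 21.1% of genes tested (5.62% higher, 15.4% lower). The authors' deposited table of this comparison lists 1102 genes, all with an adjusted p below 0.01, and 0 of the 10 members. With 3 libraries a group an exact permutation test cannot go below p = 0.1.

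The rmIl22 libraries differed among themselves in several members. Socs3 stood at 13.9, 12.8 and 13.0 TPM in the PBS libraries and at 11.6, 30.5 and 14.8 TPM in rmIl22 libraries 1, 2 and 3. Libraries 1 and 3 thus lay just below and just above the saline values, and library 2 was 2.30 times the PBS mean. On the log2 scale Socs3 was higher by 0.37 with rmIl22 (SE 0.31, adjusted p = 0.681). Without library 2 this value was -0.011.

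Il18 was split around the saline values. It stood at 68.6, 76.7 and 72.1 TPM with PBS and at 46.1, 217 and 50.2 TPM with rmIl22. Library 2 was above all saline libraries and libraries 1 and 3 were below all of them (log2 fold change 0.14, SE 0.54, adjusted p = 0.953). Without library 2, Il18 was lower with rmIl22 and passed (log2 fold change -0.58, adjusted p = 0.0179, the lowest over its alternatives, which reached 0.989). Tifa had the same layout, with 100.3, 85.4 and 96.8 TPM against 58.8, 125 and 67.8 TPM (log2 fold change -0.24, SE 0.27, adjusted p = 0.782). Without library 2 it passed at -0.57 (adjusted p = 0.0300, in a range of 0.0300 to 0.973). In that fit 9.31% of 14281 genes passed, with 6.12% lower.

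Pla2g5 was at 0.696, 0.359 and 0.822 TPM with PBS and at 1.15, 4.04 and 0.479 TPM with rmIl22 (two-sided exact permutation test, p = 0.3). Its 234 reads in library 2 compare with 24 to 69 in the other 5 injected libraries. Its neighbour Pla2g2a stood at 18.5 TPM in that library, inside its PBS range of 10.8 to 19.9 TPM. Bcl3 went from 10.9, 9.66 and 12.4 TPM to 13.1, 18.7 and 11.6 TPM (log2 fold change 0.34, SE 0.19, adjusted p = 0.469).

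Stat3 was at 35.5, 30.7 and 37.9 TPM with PBS and at 31.9, 43.7 and 29.9 TPM with rmIl22 (log2 fold change 0.0042, SE 0.17, adjusted p = 0.994). Osmr was at 1.32, 1.81 and 1.71 TPM and at 1.31, 2.17 and 1.74 TPM. Il6st was the most even member with rmIl22, at 19.99, 20.2 and 20.8 TPM against 18.2, 16.4 and 20.4 TPM (log2 fold change 0.15, SE 0.11, adjusted p = 0.651). For Cebpd the spread was on the saline side, with 18.1, 41.1 and 24.8 TPM against 19.7, 21.3 and 19.7 TPM, and the same held for Sprr1a, with 3.76, 11.4 and 4.13 TPM against 9.64, 6.18 and 6.80 TPM. PBS library 2 was the highest of the 3 in both.

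**Figure D3:**
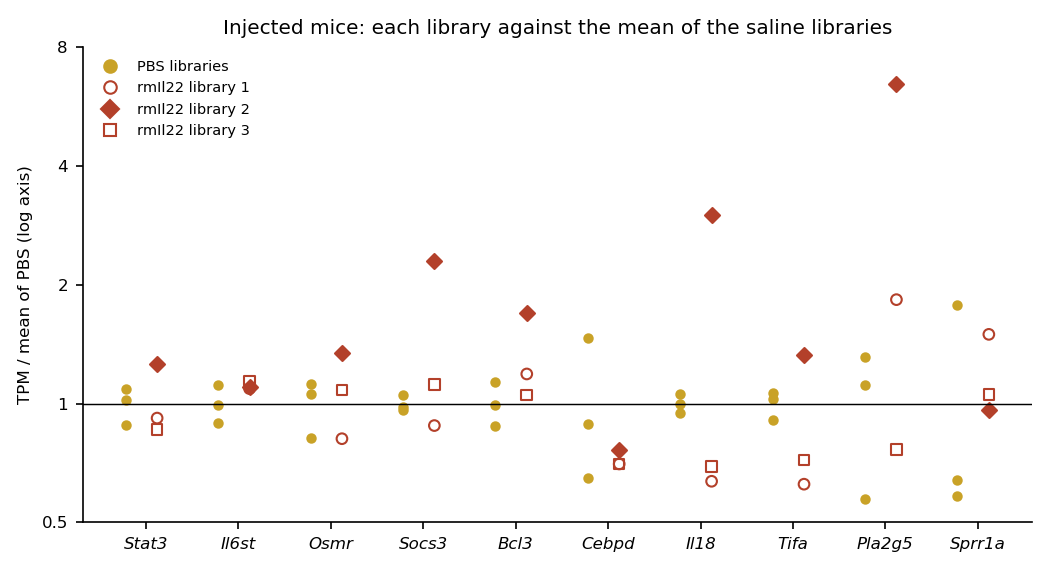
TPM of each injected library divided by the mean of the 3 PBS libraries, on a log axis. Yellow points are PBS libraries, and red circles, filled diamonds and squares are rmIl22 libraries 1, 2 and 3. The diamond lies at 2.30 for Socs3, 3.00 for Il18 and 6.46 for Pla2g5, away from the circle and square, while in Il6st and Cebpd the 3 symbols lie together.

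In 8 of the 10 members rmIl22 library 2 was the highest of its group, and in 7 it lay above every PBS library. The share of all genes with these layouts was not computed, so whether the members are unusual in this cannot be said. Its Socs3 value fell within the P24 range of 27.9 to 82.5 TPM, its Il18 value above the P24 maximum of 177 TPM, and its Bcl3 and Pla2g5 values just below the P24 minima of 20.5 and 4.29 TPM. Other measures moved with it. Neutrophil markers summed to 1035 TPM in library 2 against 0.934 and 153 TPM in libraries 1 and 3, and 4.16 to 79.6 TPM with PBS, nearly all from S100a8 (400.3 TPM) and S100a9 (627 TPM). Of the other 4 markers, Csf3r stood at 6.71 and Ly6g at 1.38 TPM there, while Mpo and Elane did not exceed 0.202 TPM in any library. Ileal enterocyte markers summed to 4945 TPM in library 2 against 13859 and 11183 TPM in the other rmIl22 libraries and 5564 to 7217 TPM with PBS. The sums of libraries 1 and 3 were thus farther from saline, but single markers split. Fabp2 (988 to 1445 against 1681 to 3006 TPM with PBS) and Alpi (1492 to 1701 against 2070 to 2494 TPM) were below PBS in every rmIl22 library. Slc10a2 (35.7 to 366 against 5.13 to 19.8 TPM) was above it, and Fabp6 and Anpep overlapped. Smooth muscle markers summed to 1098 TPM in library 2 against 3654 and 1878 TPM in libraries 1 and 3, and 1839 to 2306 TPM with PBS. Reg3g, an IL-22 response gene, was at 8476 TPM there against 3983 and 3506 TPM. The part of these differences in the values of the members was not tested.

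The PBS mice at day 16 were not the untreated P14 mice in every member. Il18 was 68.6 to 76.7 TPM with PBS and 19.8 to 38.4 TPM at P14, with no overlap, and Cebpd was 18.1 to 41.1 and 13.3 to 16.1 TPM. Socs3 with PBS lay within the P14 range, and the values of the other members overlapped. The share of all genes without overlap between these groups was not computed, so whether the members are unusual in this cannot be said. Age and injection both differ between these groups, cannot be told apart, and no test was made.

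The difference between both effects was tested in a fit of all 14 libraries, since the comparisons share no library. The rise with age exceeded the change with rmIl22 in 4 members: Sprr1a (by 2.20 on the log2 scale, SE 0.49, adjusted p = 0.00606), Cebpd (1.72, SE 0.39, adjusted p = 0.00644), Bcl3 (0.99, SE 0.26, adjusted p = 0.0146) and Socs3 (1.53, SE 0.46, adjusted p = 0.0291). Pla2g5 entered this fit through its P24 libraries while too low in the injected mice, so its difference of 1.53 is given as a description. Of all 15702 genes in this fit, 23.8% passed, 1022 with a positive difference, as in these members, and 2712 with a negative one. On median-scaled TPM 2214 were positive and 2037 negative. Il18 missed (1.69, SE 0.64, adjusted p = 0.0680) and passed without rmIl22 library 2 (2.41, adjusted p = 0.000974, in a range of 0.000974 to 0.163). The calls of Sprr1a, Cebpd and Bcl3 held in all 16 alternatives. The Socs3 call was lost without P14 library 1 or 2, P24 library 2, PBS library 1 or 2, or rmIl22 library 1 or 3 (adjusted p of up to 0.0715).

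The other genes of the pathway were read from fixed lists, first in P24 against P14. Among all genes 14.6% were higher and 43.7% lower there (29.5% and 28.3% on median-scaled TPM). Of 14 ligand genes, 3 were abundant enough to test. They met the limit through P14, where they were higher, so their common direction is set by the filter. Examples were Clcf1 (log2 fold change -0.77, adjusted p = 0.00452) and Ctf1 (-0.60, adjusted p = 0.00304), both interleukin-6 family cytokines. Il10, which the limit left out, was listed at 0 in each P14 library and at 0.0672 to 0.513 TPM at P24. Il22 itself was too low for the fit, with 0 reads in each P14 library, 7 to 63 at P24, 0 to 3 with PBS and 0 to 2 with rmIl22. Of 9 receptor chains tested 5 fell and 0 rose (3 and 0 on median-scaled TPM), led by Il10rb (64.1 ± 8.26 to 28.4 ± 1.61 TPM, -1.14) and Il11ra1 (-0.96), with Cntfr among them, which met the limit through P14. Il22ra1 went from 85.3 ± 19.8 to 61.0 ± 5.02 TPM (-0.45, adjusted p = 0.0243), a call lost on median-scaled TPM (adjusted p = 0.410). Of the 4 Janus kinases, Jak2 rose (40.8 ± 4.90 to 75.2 ± 9.90 TPM, 0.86, adjusted p = 8.13e-05). Of 5 other STAT genes tested 4 fell, among them Stat5b (-1.21) and Stat2 (-1.20), while Stat6 did not pass. On median-scaled TPM 3 of these fell and 1 rose, Stat6 (adjusted p = 0.0427).

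Of 15 negative regulators other than Socs3, 8 fell, 1 rose and 6 did not pass, beside 43.7% lower and 14.6% higher among all genes. Their median log2 fold change was -0.25, the same as that of all genes. With median-scaled TPM 5 fell and 3 rose. The gene that rose was Socs1, a close relative of Socs3 (2.91 ± 0.291 to 6.36 ± 1.98 TPM, 0.88, adjusted p = 0.00129). Pias2 (-1.03) and Socs7 (-1.01) fell most. Of 18 further STAT3 target genes 9 rose and 3 fell (13 and 2 with median-scaled TPM), with a median of 0.33. Lrg1, an acute-phase glycoprotein gene, rose from 0.657 ± 0.0688 to 5.33 ± 2.13 TPM (1.88), having met the limit through P24, and Junb, an AP-1 factor gene, from 43.5 ± 7.87 to 138 ± 13.9 TPM (1.66). Il4ra (-0.83) and Cebpb (-0.76) fell.

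Genes that work with single members were read in the same way, beside 14.6% higher and 43.7% lower among all genes (29.5% and 28.3% on median-scaled TPM). Among NF-κB proteins and partners of TIFA, 7 of 12 rose and 0 fell (10 and 0 on median-scaled TPM), with a median of 0.71. Relb rose from 17.8 ± 3.18 to 52.7 ± 7.39 TPM (1.52) and the inhibitor gene Nfkbia from 52.2 ± 5.68 to 142 ± 24.5 TPM (1.42). Of 5 other C/EBP family genes 4 fell (3 on median-scaled TPM), among them Cebpa (-0.97) and Cebpb (-0.76), against the rise of Cebpd. Another of the 4, Cebpe, met the limit mainly through P14. Of 7 genes of interleukin-18 processing and reception, 4 rose and 1 fell (5 and 1 on median-scaled TPM). Il18bp, which encodes the soluble decoy of interleukin-18, rose from 3.06 ± 0.415 to 9.79 ± 1.98 TPM (1.40), Casp4 rose by 0.97, and the receptor gene Il18r1 fell from 15.6 ± 9.02 to 1.24 ± 0.191 TPM (-2.71, adjusted p = 3.43e-05).

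Relatives of Pla2g5 and Sprr1a were read last, beside the same shares of all genes. Of 5 other secreted phospholipase A2 genes tested 3 rose (4 on median-scaled TPM), led by Pla2g2a (2.74) and Pla2g2f (2.02), and Pla2g12a fell (-0.76). Pla2g2a is annotated as a polymorphic pseudogene in GENCODE M21. Of 15 other small proline-rich protein genes 3 reached the expression limit, of which Sprr2a1 and Sprr2a2 were near the limit at P14 and met it through P24. The highest was Sprr2a3 (10.8 ± 4.15 to 55.3 ± 16.2 TPM, 2.28), and Sprr2a2 had a value of 1.45. The Sprr2a genes are near-identical, and how reads were divided between them is uncertain.

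With rmIl22, 1 gene of the 11 lists passed: Stat2, a transcription factor of interferon signaling, fell from 45.5 ± 2.75 to 23.7 ± 5.91 TPM (-0.94, adjusted p = 0.0381). This call was lost in 10 alternatives, among them median-scaled TPM (adjusted p = 0.102) and the omission of each library except rmIl22 library 2. Il10rb was lower in all 3 rmIl22 libraries (49.7 to 52.8 TPM) than in all PBS libraries (63.4 to 72.1 TPM) without passing (adjusted p = 0.109).

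**Figure D4:**
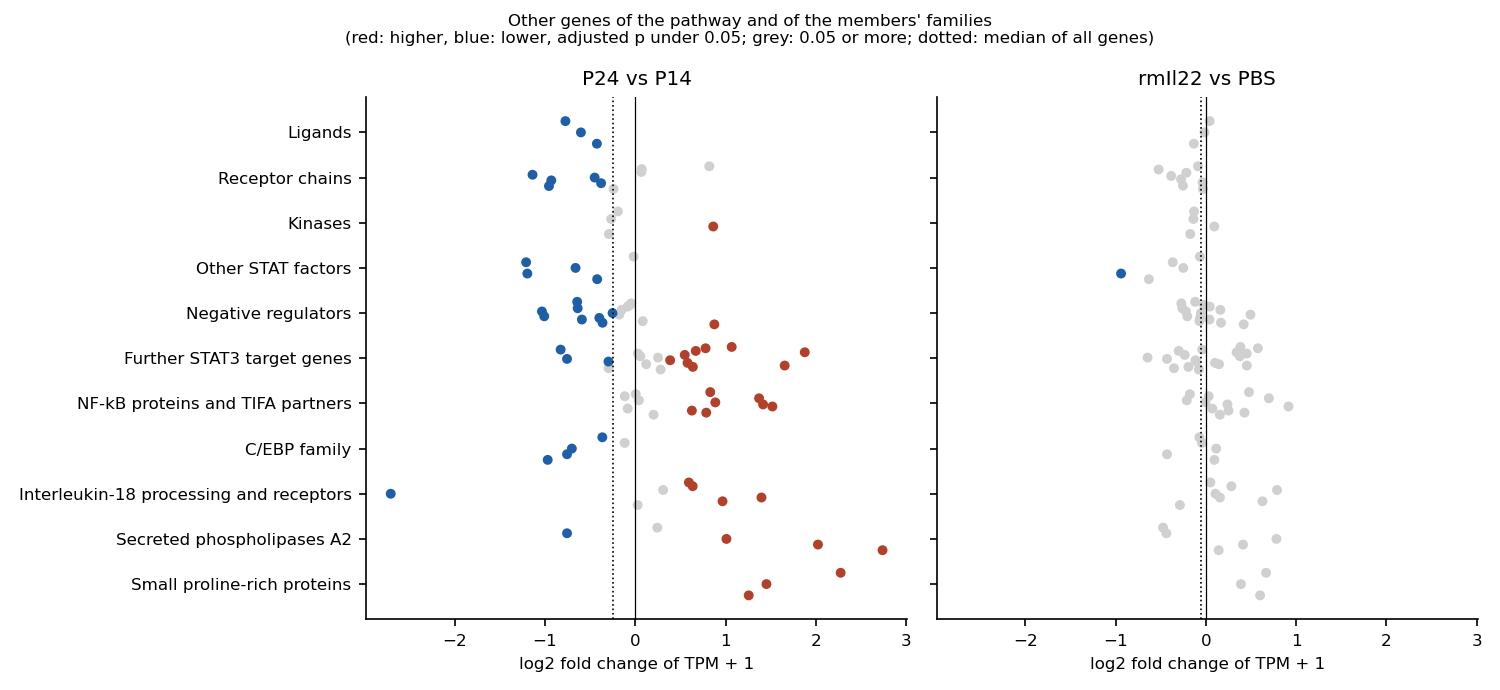
Log2 fold change of TPM + 1 for every tested gene of the 11 pathway and family lists in P24 against P14 (left) and rmIl22 against PBS (right). Red and blue points passed higher or lower, grey points did not pass, and the dotted line is the median of all genes. On the left, points of the NF-κB list that passed are all red and those of the C/EBP list all blue, and on the right Stat2 is the only coloured point.

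Patterns over the 14 libraries were compared by Pearson correlation of log2(TPM + 1) among 15702 genes, as a description of libraries that share groups and depth. Socs3 and Pla2g5 were the most alike pair of members (r = 0.94), followed by Socs3 and Bcl3 (r = 0.89). The genes most like Socs3 were Zc3h7a (r = 0.97), Gm16014 and B3gnt7, and those most like Bcl3 included Sbno2 (r = 0.97) and A130014A01Rik. For Pla2g5 they were Tex12 (r = 0.97), a gene that overlaps Il18, B3galt5 and Stom. Il18 was most like Lpar5, 1700019G17Rik and Cd47 (r = 0.95 each), Cebpd most like Gadd45g (r = 0.95), E230001N04Rik and Mmp13, and Sprr1a most like Pax8 (r = 0.94), Cycs and Pgm1. Tifa had no close match, with BC037034 at r = 0.81, followed by Mst1r and Odf2l. Stat3 was most like Traf6 (r = 0.89), Sec16a and Ept1, Il6st most like Igfbp5 (r = 0.89), Zfp846 and Marcks, and Osmr most like Adcy4 (r = 0.91), Dok2 and Arrb2.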

How the data were processed

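The authors deposited TPM per gene symbol and library. In the submitters' processing notes the tools are FastQC 0.11.2, HTSeq 0.6.1p1, DESeq2 1.14 and STAR 2.4.0f, and the build is mm10. The role of each tool is not given in the sources used here. The authors' 2 deposited comparison tables hold log2 fold changes and adjusted p-values with decimal commas, listed by gene, in other units than the TPM. Entries whose symbols were date numbers (27 of 46882) were left out. Columns of P14 and P24 carry numbers other than the labels' replicate numbers and were assigned to groups only.

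The test was limma 3.58.1 (R 4.3.3) with an intensity trend on log2(TPM + 1), which understates changes of low genes, two-sided, with Benjamini-Hochberg adjustment over all genes tested and a threshold of 0.05. Genes needed a TPM of at least 1 in 4 (P24 vs P14) or 3 libraries. Values ± are SD, SE comes from the fit, and the log2 fold changes given without SE are from the same fit. Pla2g5 in the injected mice had an exact permutation test. Read numbers, whole to within 0.01, were recovered from the TPM steps for 31189 of 31189 genes with a value above 0. The method was also run on simulated reads with the same spread for all genes. That run does not show its power at the wider spread of the rmIl22 libraries. The design text calls the libraries biological replicates. Members, lists and tests were chosen with earlier results of these data known. Genes named beside the members are, per list and comparison, up to 2 called genes with the largest rise and fall, Il22, Il22ra1 and Il10rb, and the 3 genes most correlated with each member, of which 1 is not reported here. Overlapping genes, Saa1, Reg3g, Xist, Ddx3y, Stat6, Il10, Cntfr, Cebpe, Sprr2a1 and single markers were chosen after their values were seen. Coordinates are from GENCODE M21 (GRCm38, the build of mm10).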

Additional observations from a re-analysis of the deposited data

Results flagged for a closer look

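Osmr in P24 library 8 was flagged as a sample far from the others of its group, at 1.93 TPM against 1.10 to 1.19 TPM in the other 3. The gap to the nearest library was 0.897 of the group's range, above Dixon's 95% critical value for 4 libraries. It was the only flag among 20 groups of 4 libraries, of which chance flags about 1 in 20. Groups of 3 libraries were not tested.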

How the results depend on the processing

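In P24 against P14 the member counts of 6 higher and 0 lower held in all alternatives (Pla2g5 counted, which met the limit through P24). The number of all genes called there was 8546, and 5389 in the Xist-high libraries alone, an alternative added after seeing the data. Signs turned without a call on median-scaled TPM (Stat3 0.11, Il6st 0.13, Osmr 0.023), with voom (0.16, 0.18, 0.081) and, for Tifa, with the Xist term (-0.014). Without single libraries Tifa ranged from -0.10 to 0.18. In rmIl22 against PBS 389 genes were called, 98 with no filter, 1058 in the fit of all 14 libraries, 122 with the Xist term (also added later) and 4 to 1329 without single libraries. No member was called in these settings except without rmIl22 library 2, where 2 were lower (0 to 2 over the omissions). The Xist term, also added later, left rmIl22 library 1 alone against PBS, since rmIl22 libraries 2 and 3 were Xist-high and no PBS library was. Signs turned in that fit (Stat3 -0.11, Osmr -0.17, Socs3 -0.17, Il18 -0.64), which describes library 1 and is no adjustment for sex. Over the omissions Stat3 ranged from -0.16 to 0.11, Osmr from -0.047 to 0.18, Socs3 from -0.011 to 0.65 and Il18 from -0.58 to 0.53. For the difference of both effects 3 to 6 members and 2400 to 4997 genes were called over the omissions, against 5 and 3734 (Pla2g5 counted, which met the limit through P24), and Stat3 turned to 0.051 on median-scaled TPM. Apart from the Xist term in rmIl22 against PBS, the cause of these shifts was not tested.

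With the replicate block in rmIl22 against PBS, 280 genes and 0 members were called. Same-numbered libraries correlated at -0.07, 0.31 and -0.07 in their deviations. Differently numbered ones ranged from -0.30 to 0.38, so these values cannot show whether same-numbered samples were paired. The labels give only a number. No paired analysis was possible for P24 against P14 because the table columns do not carry the labels' replicate numbers. Depth limits Pla2g5 most, with 24 reads in its lowest library.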
